A study of Mus musculus with 10 samples.

Results

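The regions described here lie in the part of the mouse genome between genes or inside introns and carry no repeat annotation. They were taken from a table of 577 differentially methylated regions (DMRs) of F1 sperm as the rows whose detailed annotation was intergenic or intron with no repeat element named. The rule selected 226 regions, 162 intergenic and 64 intronic, and did not use the direction or the size of the methylation change. The 10 sperm donors were C3H/HeN mice of the first offspring generation (F1), 17 to 19 weeks old. The 5 males of the arsenic group were born to different dams that drank water with sodium arsenite during pregnancy, and the 5 control males to different dams given tap water. The sperm was taken from the cauda epididymis by swim-up, somatic cells were lysed, and the DNA was read by reduced representation bisulfite sequencing, RRBS. In this assay the enzyme MspI cuts at CCGG and enriches CpG-rich fragments. Every methylation difference below is the deposited value of a region, the arsenic group minus the control group in percentage points. A hypoDMR was lower and a hyperDMR higher in the arsenic group, and a DMC is a single cytosine that passed the differential methylation call. The table holds 1 value per region for the whole comparison, so no spread between animals can be given, a value's depth is known only as at least 10 reads at each CpG in every sample, and each test compares regions and not animals.

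Cytosines of CpG dinucleotides are methylated by DNA methyltransferases. In the male germ line this methylation is erased in primordial germ cells of the fetus and written anew in prospermatogonia before birth, and most CpGs outside CpG islands are then highly methylated in sperm. Enhancers and other distal regulatory elements of developmental genes often lie between genes or in introns, and the nearest gene is not always the one they act on.

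The reference sequences of 12 intergenic and intronic regions named below are given first. They were read on the plus strand of GRCm38.p6 (mm10), and the bases of CpG dinucleotides are in capitals. This reference is of another mouse strain than the sperm donors. A single capital at an end is the outer base of a CpG that the region cuts through. The first pair is the region with the largest loss of all, chr8:8992045-8992111, and its neighbour at chr8:8985328-8985450, both nearest to the non-coding RNA gene 4933430N04Rik. The next are the second largest loss, nearest to Tmem132b (chr5:126082330-126082405), the largest intronic loss, in intron 1 of Tppp (chr13:74020189-74020271), and the losses with the most DMCs among those short enough to print, nearest to Fgfr2 (chr7:130369477-130369627) and 4930505K14Rik (chr5:148804378-148804525).
4933430N04Rik, larger loss: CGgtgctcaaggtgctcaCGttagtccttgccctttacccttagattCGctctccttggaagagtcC
4933430N04Rik, smaller loss: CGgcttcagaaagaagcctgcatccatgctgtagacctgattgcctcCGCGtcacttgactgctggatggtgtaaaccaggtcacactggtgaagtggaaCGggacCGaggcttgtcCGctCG
Tmem132b: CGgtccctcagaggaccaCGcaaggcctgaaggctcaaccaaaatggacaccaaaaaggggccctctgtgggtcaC
Tppp: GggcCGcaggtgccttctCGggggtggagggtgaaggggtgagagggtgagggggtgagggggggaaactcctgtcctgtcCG
Fgfr2: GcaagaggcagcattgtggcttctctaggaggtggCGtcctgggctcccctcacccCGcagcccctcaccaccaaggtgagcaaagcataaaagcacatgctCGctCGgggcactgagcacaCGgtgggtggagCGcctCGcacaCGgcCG
4930505K14Rik: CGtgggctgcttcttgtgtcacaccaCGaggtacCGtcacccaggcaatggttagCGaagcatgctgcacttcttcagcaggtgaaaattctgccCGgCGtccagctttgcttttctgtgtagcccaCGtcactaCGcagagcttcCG

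The pair nearest to Bmp7 follows, with the loss at chr2:172862994-172863129 and the gain at chr2:172818450-172818624. The last are the gains nearest to 4930553C11Rik (chr11:40031947-40032093), Pla2g1b (chr5:115459276-115459359) and B230214G05Rik (chr15:88301028-88301087), the 3 largest gains among these regions, and the gain in intron 27 of Efcab6 (chr15:83874030-83874081), in which 2 of 3 listed CpGs were DMCs.
Bmp7, loss: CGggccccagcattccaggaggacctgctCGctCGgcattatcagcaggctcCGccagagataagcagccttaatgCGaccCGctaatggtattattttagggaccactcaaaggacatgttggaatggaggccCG
Bmp7, gain: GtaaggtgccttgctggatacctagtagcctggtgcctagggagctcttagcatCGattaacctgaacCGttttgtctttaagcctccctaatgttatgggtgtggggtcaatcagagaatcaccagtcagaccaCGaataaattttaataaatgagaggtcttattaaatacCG
4930553C11Rik: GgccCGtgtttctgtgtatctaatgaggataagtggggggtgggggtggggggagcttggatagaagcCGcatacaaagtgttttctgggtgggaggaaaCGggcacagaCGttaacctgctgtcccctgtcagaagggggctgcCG
Pla2g1b: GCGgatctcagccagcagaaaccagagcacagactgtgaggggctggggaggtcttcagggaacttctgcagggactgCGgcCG
B230214G05Rik: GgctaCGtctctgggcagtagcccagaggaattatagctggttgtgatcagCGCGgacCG
Efcab6: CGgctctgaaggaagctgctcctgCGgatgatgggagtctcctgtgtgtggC

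Methylation was lower in the arsenic group in 205 of the 226 regions and higher in 21. The hypo share was 90.7% (95% Wilson interval 86.2 to 93.8%), beside 85.6% of all 577 listed regions and 82.3% (78.0 to 86.0%) of the 351 other listed regions. The difference of 8.37 points (interval 2.59 to 13.7) passed Fisher's exact test, two-sided, with adjusted p = 0.0392 over the 8 tests made. This test was chosen with the high hypo share of intergenic regions in these data already known, so it is no independent test. Intergenic regions without repeats held 149 hypoDMRs and 13 hyperDMRs, and intronic ones 56 and 8. Their hypo shares of 92.0% and 87.5% differed by 4.48 points (interval -3.50 to 15.3), and the adjusted p of Fisher's exact test was 0.613. The call against the other listed regions was lost without the 14 intronic regions that overlap an exon of their host gene, an alternative chosen after seeing the data (7.76 points, Fisher's exact test, adjusted p = 0.0710). It was also lost against the 225 regions in LINE and LTR retrotransposons alone (adjusted p = 0.0994 in Fisher's exact test), at 12 points or more (0.287), with at least 2 DMCs (0.295) and with q-values of at most 0.001 (0.793).

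**Figure D1:**
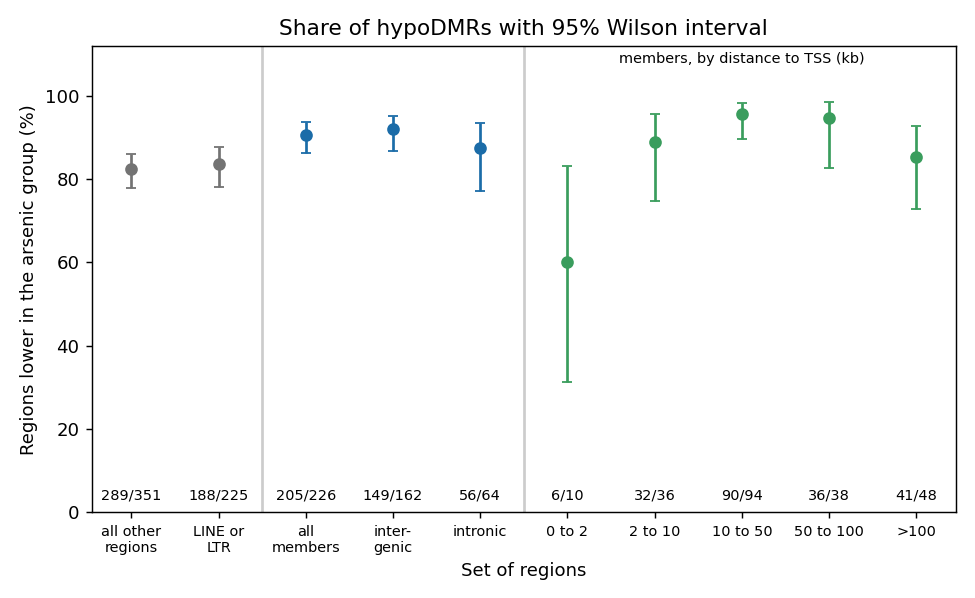
Share of regions with lower methylation in the arsenic group (y axis, percent) for sets of regions (x axis), with 95% Wilson intervals that cover counting error only and the counts printed above the axis. Points for the other listed regions (82.3%) and LINE or LTR regions (83.6%) lie below the point for the non-repeat intergenic and intronic regions (90.7%), and the point for regions within 2 kb of a start site, 6 of 10, has the widest interval.

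Over the 226 regions the absolute difference had a median of 12.1 points (upper quartile 13.6, range 10.03 to 26.1). HypoDMRs had a median of 12.1 and hyperDMRs of 11.8 points. Differences of at least 15 points were found in 33 of the 226 (14.6%, interval 10.6 to 19.8%), beside 14.6% of all listed regions, and in 51 of the 351 others (14.5%; Fisher's exact test, adjusted p = 1). The smallest values just inside the limit of 10 points were -10.03 nearest to Lipg, -10.04 nearest to Foxl2 and -10.06 nearest to Tapt1. Regions just outside the limit are not analysed here.

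The 2 largest losses lay more than 100 kb from a gene start. The region of -26.1 points nearest to 4933430N04Rik lay 140210 bp from its transcription start site (TSS) and held 2 DMCs among 5 listed CpGs. Its neighbour, 6594 bp away, differed by -11.3 points with 6 DMCs among 13. The loss of -25.9 points nearest to Tmem132b, which encodes a transmembrane protein, lay 549949 bp from the TSS and had 2 DMCs among 3 CpGs. A loss of -20.1 points nearest to C130026L21Rik rested on 1 DMC among 3 CpGs. By contrast, 8 of 10 listed CpGs were DMCs in the region of -18.8 points nearest to Fgfr2, a receptor of fibroblast growth factors. HOMER placed that region 102744 bp upstream of the Fgfr2 TSS and called it intergenic, while in GENCODE vM21 it overlaps a transcript of Fgfr2. Losses of -18.6 points nearest to D630013N20Rik, -18.2 nearest to Pon2 and -18.1 nearest to Micall2 came next. Pon2 encodes a paraoxonase, and its region lay 2629 bp from the TSS, the closest of the 10 largest intergenic losses. The Micall2 region was 615 bp wide with 7 DMCs among 14 CpGs. The other members of the 10 largest intergenic losses were nearest to 5430403N17Rik (-17.6, at 22811 bp), Depdc1b (-17.1, at 5380 bp) and Laptm4a (-17.0, at 8324 bp).

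Inside introns the largest loss was -20.0 points in intron 1 of Tppp, which encodes a tubulin polymerization-promoting protein, with 3 DMCs among 4 CpGs, 868 bp from the nearest exon. A region assigned to Col9a1 by distance lay in intron 16 of Col19a1 and differed by -16.3 points. A region in intron 1 of 6030440G07Rik also differed by -16.3 points. The region in intron 1 of Ptprz1, a receptor-type tyrosine phosphatase gene of glia, differed by -14.6 points and lay 13466 bp from the nearest exon of an intron of 49945 bp. The regions in B4galt4, a galactosyltransferase gene, and Polrmt, the mitochondrial RNA polymerase gene, differed by -15.0 and -14.6 points and overlapped a host exon by 9 and 52 bases. Losses in 4930539M17Rik (-16.0), Stpg4 (-15.4), Rps6kl1 (-13.8) and Tmem63b (-13.7) completed the 10 largest, and the Tmem63b region overlapped a host exon by 143 of its 252 bases.

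**Figure D2:**
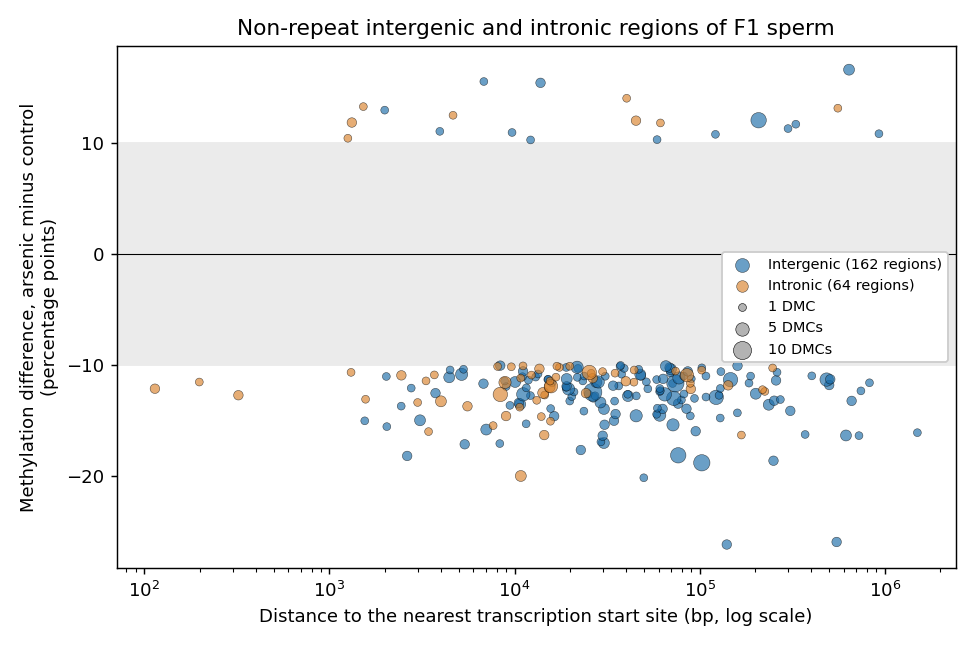
Methylation difference, arsenic minus control (y axis, percentage points), against the distance to the nearest TSS (x axis, bp, log scale) for the 162 intergenic and 64 intronic regions, with the area of a point growing with its number of DMCs. Both losses beyond 25 points lay more than 100 kb from a TSS, and the grey band marks the limit of 10 points within which no region was listed.

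The 21 gains ranged from 10.2 to 16.5 points. The largest, nearest to 4930553C11Rik at 641795 bp from its TSS, held 3 DMCs among 6 CpGs. A region 6825 bp from the TSS of Pla2g1b, a secreted pancreatic phospholipase gene, gained 15.5 points with 1 DMC among 3 CpGs, and one nearest to B230214G05Rik gained 15.4 points with 2 among 5. The gain nearest to Tnfaip8l2, a negative regulator of immune signalling, was 12.9 points. That region overlapped the processed pseudogene Gm9169, and its central 100 bp had 2 placements in the bisulfite-converted genome at up to 3 mismatches. Intronic gains lay in Itsn1, an endocytic scaffold gene, although the nearest TSS was that of Atp5o (13.98 points), in intron 1 of Kmt2a, which encodes an enzyme that methylates histone H3 (13.2), in Unc5d, a netrin receptor gene (13.1), in Snx24 (12.5) and in Efcab6 (11.97). Of the 21 gains, 16 rested on 1 DMC. The exception in number was the region nearest to A930031H19Rik, which gained 12.01 points with 7 DMCs among 25 CpGs.

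The number of DMCs per region was compared in the same way. Listed CpGs can include both cytosines of 1 dinucleotide, so 2 DMCs need not be 2 separate sites. At least 2 DMCs were found in 95 of the 226 regions (42.0%, interval 35.8 to 48.6%), beside 35.5% of all listed regions and 110 of the 351 others (31.3%, 26.7 to 36.4%). The difference of 10.7 points (interval 2.67 to 18.7) passed Fisher's exact test (adjusted p = 0.0392). The shares of 44.4% in intergenic and 35.9% in intronic regions did not differ beyond their intervals (difference 8.51 points, -5.82 to 21.6, Fisher's exact test, adjusted p = 0.613). The other regions held fewer listed CpGs, with a median of 5 against 6 and 24.5% against 15.9% of regions with 3 or fewer, and the part of this in the difference was not tested. With at least 5 CpGs, at 12 points or more, without chrX and chrY, with 3 DMCs in place of 2 and without exon overlaps the call against the others was lost (Fisher's exact test, adjusted p from 0.0710 to 0.287), and with q-values of at most 0.001 the direction turned (-3.10 points, adjusted p = 0.868).

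Most regions still rested on few cytosines. A single DMC was held by 131 (58.0%), and at least 3 by 46 (20.4%). Of the regions with 1 DMC 87.8% were hypoDMRs, of the 49 with 2 DMCs 93.9% and of the 22 with 3 DMCs 95.5%. The hyperDMRs in these groups numbered 16, 3 and 1, and the shares were not tested against each other. The 10 DMCs of the region nearest to 4930505K14Rik, among 16 listed CpGs with a difference of -12.4 points, were the most of any region. They were followed by 9 DMCs among 27 CpGs in the region nearest to Oxtr, the oxytocin receptor gene (-11.6 points). That region lay 73998 bp upstream of the TSS and overlapped the processed pseudogene Gm15519. In 1 region every listed CpG was a DMC: the loss of -17.0 points nearest to Bnc2 (3 of 3), a region named after its values were seen.

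**Figure D3:**
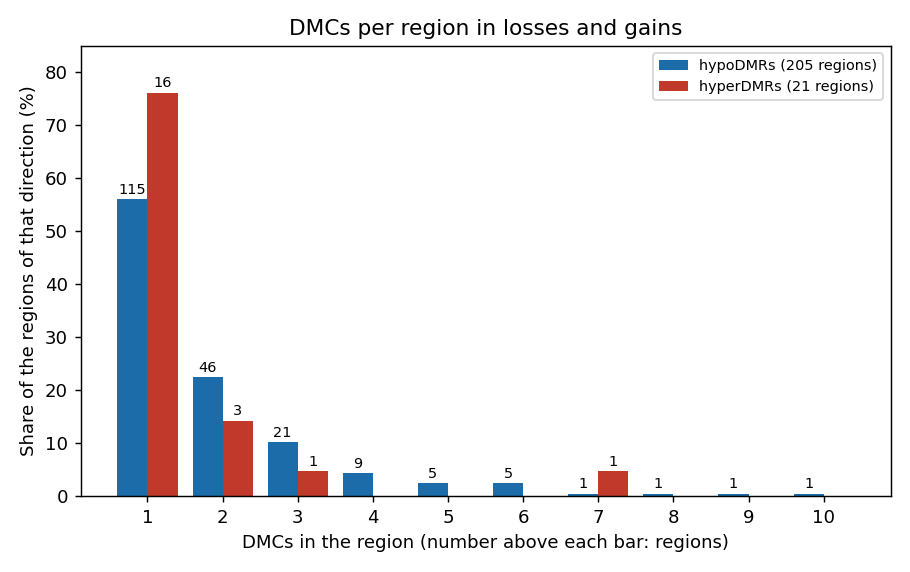
Number of DMCs per region (x axis) against the share of the hypoDMRs (205 regions, blue) or hyperDMRs (21 regions, red) with that number (y axis, percent), with counts of regions above the bars. A single DMC was held by 115 hypoDMRs and 16 hyperDMRs, and each number from 4 to 6 was seen in hypoDMRs and in no hyperDMR. Of the 2 regions with 7 DMCs, 1 was a hypoDMR and 1 a hyperDMR. With 21 hyperDMRs the counts are small, and the 2 distributions were not tested.

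The number of CpGs listed for a region was compared with its reference sequence, since no source used here says whether it counts dinucleotides or the cytosines of each strand. In 105 of the 226 regions (46.5%) it exceeded the number of CpG dinucleotides in the reference sequence, and in 0 regions did it exceed the number of CpG cytosines on both strands. Listed CpGs and DMCs can thus include both cytosines of 1 dinucleotide and need not be separate sites. The region nearest to Gm41 on chrX had 3 listed CpGs and 2 dinucleotides, and 5 regions had fewer than 3 dinucleotides. Listed CpGs had a median of 6 (range 3 to 29), and the width had a median of 150.5 bp (16 to 1017). The widest regions lay in intron 1 of Spire2, an actin nucleation gene (1017 bp, 29 CpGs, 4 DMCs, -11.6 points), and nearest to Txn2, the mitochondrial thioredoxin gene (983 bp, 19 CpGs, 1 DMC, -11.0 points), and Zfp169 (964 bp, 14 CpGs, 2 DMCs, -13.5 points).

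**Figure D4:**
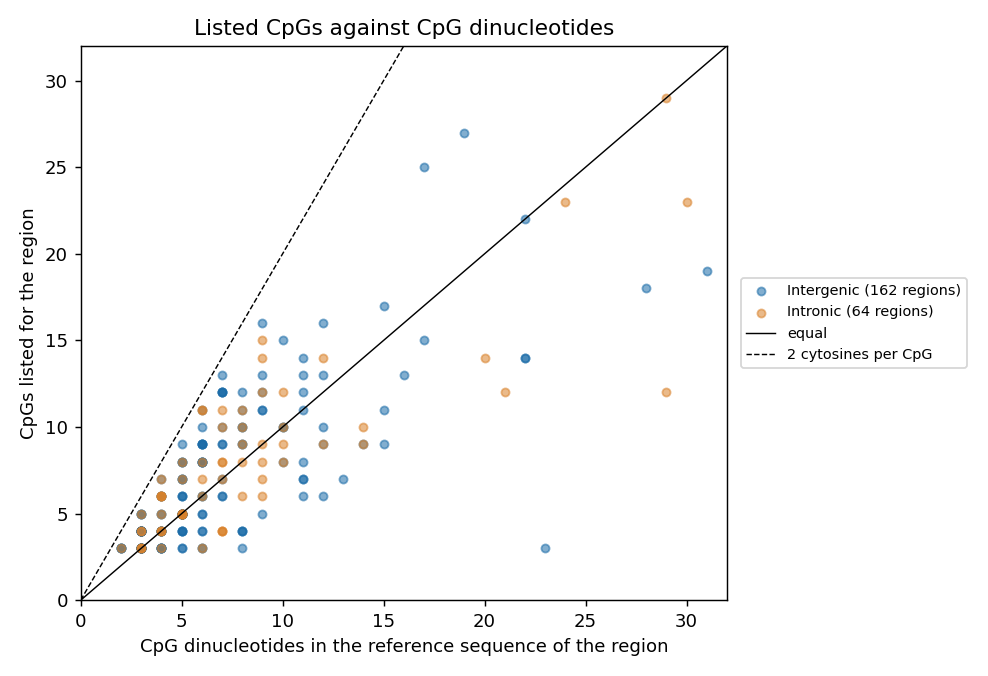
CpGs listed for each region (y axis) against the CpG dinucleotides in its reference sequence (x axis), for 162 intergenic (blue) and 64 intronic (orange) regions. The 105 points above the solid line of equality hold more listed CpGs than dinucleotides, and no point lies above the dashed line of 2 cytosines per dinucleotide.

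The sequence of the regions was examined next. A window of 100 bp to each side of the midpoint had a median observed-to-expected CpG ratio of 0.478 in intergenic and 0.455 in intronic regions, beside 0.482 in 30025 intergenic MspI fragments outside repeats cut from the genome in silico. Windows with a GC content of at least 50% and a ratio of at least 0.6, the usual criteria of CpG islands, were 26 of the 162 intergenic regions (16.0%, interval 11.2 to 22.5%) and 22.6% of those fragments, which know neither the coverage nor the methylation of a site. Among the 64 intronic regions, for which no such fragments were counted, they were 6 (9.38%). The whole site CCGG was found inside 80 regions (35.4%). Sites that the end of a region cuts through were not counted, so the others are not regions without an MspI site. The absence of repeats was checked on the soft-masked reference. No masked base was found in 136 regions (60.2%), and over 50% was masked in 3 regions, those nearest to Gm20871 and Gm20854 on chrY and that nearest to Fam19a5. The central 100 bp could be placed at only 1 site of the bisulfite-converted genome, with 3 mismatches allowed, in 214 regions (94.7%). The chrY regions nearest to Gm20854 and Gm20871 had 45 and 31 placements and differed by -12.3 and -16.1 points.

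Some regions called intergenic overlap a gene in another annotation. Of the 162, 35 (21.6%, interval 15.96 to 28.6%) overlap a GENCODE vM21 gene, 13 of them a lincRNA and 6 a protein-coding gene. Processed pseudogenes, copies of spliced transcripts inserted in the genome, overlapped 10 (6.17%, interval 3.39 to 10.99%), beside 3.54% of the intergenic MspI fragments. Any overlap was counted, and the fragments had 40 to 220 bp while intergenic regions were up to 983 bp wide. The part of width in this difference was not tested. Besides the regions nearest to Oxtr and Tnfaip8l2, that nearest to Esx1 overlapped a processed pseudogene (Gm5761, -13.9 points). Esx1 is a homeobox gene of the X chromosome expressed in germ cells and placenta. The region nearest to Sec23ip overlapped Gm4768 and differed by -13.2 points.

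A host transcript was matched for 63 of the 64 intronic regions. For 51 of these the host was the gene with the nearest TSS, and for 12 (19.0%) it was another gene. Beside Col19a1, Itsn1 and Tmem63b they include Ephb1, an ephrin receptor gene (-12.2 points, listed under Mir7243), and Svop, a synaptic vesicle protein gene (-10.7, listed under Dao). The median host intron was 10921 bp long (87 to 393805), and 20 of the 63 regions lay within 100 bp of an exon. Intron 1 held 24 regions with 20 hypoDMRs (83.3%) and later introns 40 with 36 (90.0%). The difference of -6.67 points (interval -26.8 to 9.77) was not past the threshold (adjusted p = 0.613 in Fisher's exact test).

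Distance to the nearest TSS had a median of 30169 bp, 40952 in intergenic and 14507 in intronic regions. Within 50 kb 128 of 140 regions were hypoDMRs (91.4%) and beyond it 77 of 86 (89.5%), a difference of 1.89 points (interval -5.68 to 10.9; Fisher's exact test, adjusted p = 0.735). Within 10 kb in place of 50 kb the difference was -10.2 points and did not pass after adjustment (Fisher's exact test, p = 0.0457, adjusted p = 0.122). Regions annotated as promoter or exon, which lie near start sites too, are outside the rule. The 10 regions within 2 kb held 6 hypoDMRs (60.0%, interval 31.3 to 83.2%) and 4 hyperDMRs, a share that was not tested. The losses there were nearest to or in 6530411M01Rik (1551 bp, -15.0 points), Cabp1, a calcium-binding protein gene of neurons (114 bp, -12.1 points), Nr5a1, the steroidogenic nuclear receptor SF-1 (198 bp, -11.5), Etnppl (322 bp, -12.7), Tnfrsf9 (1308 bp, -10.6) and intron 1 of Tiam1, a Rac exchange factor gene (1567 bp, -13.1). The Cabp1 and Nr5a1 regions had 110 of 741 and 186 of 399 bases in host exon sequence. The gains within 2 kb were those of Kmt2a, Tnfaip8l2, Prok1 (11.8 points) and the transcription factor gene Klf6 (10.4). Regions nearest to protein-coding genes numbered 177 with 162 hypoDMRs (91.5%), and the 49 others held 43 (87.8%). The difference of 3.77 points (interval -4.46 to 16.2) was not past the threshold (adjusted p = 0.613 in Fisher's exact test). Of these 49, 44 were nearest to a non-coding RNA gene, with 38 hypoDMRs, and 5 to a pseudogene.

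Gene lists were set against the host and nearest genes, beside the hypo share of 85.6% over all listed regions. Of the growth factor and morphogen genes, 4 hypoDMRs and 1 hyperDMR were found. Besides Fgfr2 they were nearest to Gli2, the transcription factor of hedgehog signalling (-11.9 points), Inhbb, a subunit of inhibin and activin (-11.1), and Bmp7, a bone morphogenetic protein. Bmp7 had a loss of -11.1 points with 4 DMCs among 12 CpGs and a gain of 10.7 points with 1 DMC among 5, 44369 bp apart. It was the only one of 8 pairs of these regions within 100 kb of each other with opposite directions. Both regions nearest to Dad1, an oligosaccharyltransferase subunit gene, were losses (-12.6 and -12.1 points), 4969 bp apart.

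Ion channel and neurotransmitter receptor genes had 4 hypoDMRs and 0 hyperDMRs. They were nearest to Grik2, a kainate receptor subunit (-16.3 points), Adra2a, an adrenergic receptor (-15.4, 2 DMCs among 3 CpGs), and Oxtr, and in an intron of the serotonin receptor gene Htr4 (-12.1). The Htr4 region had 68 of its 367 bases in host exon sequence. Neuronal adhesion and synapse genes had 2 losses, nearest to Tmem132b and its relative Tmem132d (-11.3). Developmental transcription factors were divided, with 3 losses and 2 gains. Losses were in Tcf4 (-12.4 points) and nearest to the neighbouring homeobox genes Irx5 (-11.0) and Irx3 (-10.6), and gains in Klf6 and nearest to Foxp1 (11.3). The list of spermatogenesis genes had 0 of these 226 regions and 4 of the 351 other listed regions, all hypoDMRs, and this difference was not tested. That of imprinted genes had 0 of either. These counts do not give the methylation of those genes.

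By the words of the gene descriptions, 21 regions were assigned to a receptor gene (9.29%, against 8.55% of the other listed regions). Of these 21, 18 were hypoDMRs, beside hypo shares of 85.6% of all listed regions and 90.7% of the 226 regions. Predicted genes made up 3.98% of these regions and 11.1% of the others, and RIKEN genes 15.9% and 10.3%. Vomeronasal receptor and cadherin genes were assigned 0 of these regions, and 6 and 4 of the others. They made up only 1.04% and 0.693% of all listed regions, and none of the shares by word was tested. Of 22 marker genes of somatic cells that a sperm preparation could hold, 4 were assigned a region. All 4 were losses, beside the hypo share of 85.6% over all listed regions. The genes were Itgam of myeloid cells (-13.2 points, 19876 bp from the TSS) and Epcam of epithelium (-12.6, 5 DMCs among 11 CpGs, 64861 bp). The others were Inhbb and Wt1 of Sertoli cells, which lie in the testis (-11.1 at 21842 bp, and -10.2 in an intron). The sperm was taken from the cauda epididymis and not from the testis. The markers give no level of somatic DNA in a sample, and its part in these differences was not tested.

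Over all chromosomes the intergenic and intronic regions without repeats made up 226 of the 577 listed regions. The hypo share was 90.7% among them and 85.6% among all listed regions. They made up 26 of the 44 regions listed on chr5, which had the most listed regions, and 25 of these were hypoDMRs. On chr8 they were 19 of 32, on chr13 19 of 27 and on chr14 10 of 17, with 18, 18 and 9 hypoDMRs. The autosomes named here were chosen after their values were seen, and shares by chromosome were not tested. The sex chromosomes held few: 4 of the 31 regions listed on chrX and 2 of the 14 on chrY, all hypoDMRs. Neighbours were rare, with 4 of the 226 regions within 10 kb of another.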

How the data were processed

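RRBS was run on sperm DNA of 5 control and 5 arsenic males, grouped by the labels. Per the study's methods and the submitters' processing notes, the authors used Trim Galore for trimming, Bismark for mapping to mm10, methylKit for CpGs with 10 or more reads in each of the 10 samples, eDMR for regions of 3 or more CpGs with 1 or more DMCs, and HOMER for annotation. The deposited table has 23 columns and 0 were left out. The difference per region is a deposited score in percentage points, arsenic minus control. The deposited table also gives the count of CpGs and of DMCs per region. The p-value and q-value columns are the authors' own comparison of the groups, and the q-value served only as a stricter limit. Other columns of the deposited table hold positions and annotation.

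The 226 regions, the gene lists and the tests were chosen with earlier results of these data known, and the high hypo share of intergenic regions was among them. Shares were compared by Fisher's exact test, two-sided, with Benjamini-Hochberg adjustment over 8 tests and a threshold of 0.05. Wilson intervals (95%), and intervals of differences built from them, cover counting error only. All regions come from the same animals and are not independent, so a p-value describes the list. The regions named are the 10 largest losses and 5 largest gains among intergenic and among intronic regions, those with the most DMCs or CpGs, the widest and narrowest, those closest to and farthest from a TSS, genes with several regions, genes on a list, and the 3 smallest differences; other names were chosen after their values were seen. Sequence, introns and masking were read from GRCm38.p6 with its RefSeq annotation, and overlapping genes from GENCODE vM21. In-silico MspI fragments had 40 to 220 bp and at least 3 CpGs. Placements of the central 100 bp were counted in the bisulfite-converted genome. Scripts used Python 3.11.15, numpy 2.4.6, pandas 2.3.3, scipy 1.17.1 and numba 0.67.0 and were tested on simulated data. Alternatives were stricter limits, other thresholds and comparators, and sets without certain regions. The result of 1 gene list is not reported here.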

Additional observations from a re-analysis of the deposited data

How the results depend on the processing

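No paired analysis was possible because the table holds no values of single animals, and leaving out a replicate could not be run for the same reason. Of 83 recomputed values 57 kept their direction and side of the threshold. The hypo share of these regions against the others no longer passed at 12 points or more (7.31 points, Fisher's exact test, adjusted p = 0.287), with q at most 0.001 (7.72, adjusted p = 0.793), with at least 2 DMCs (9.28, adjusted p = 0.295), against LINE and LTR regions (7.15) and without regions that overlap a host exon (7.76), and kept its call in 6 other settings (8.25 to 13.5 points). The share with at least 2 DMCs no longer passed at 12 points (10.9), with at least 5 CpGs (9.30), without chrX and chrY (8.89), with 3 DMCs in place of 2 (6.96) and without exon overlaps (10.2), and turned to -3.10 with q at most 0.001. The settings without exon overlaps, without processed pseudogenes and with a single placement were chosen after seeing the data.

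None of the other 6 tests passed in the settings run, and these turned direction. Intergenic against intronic hypo shares were -0.0926 points with q at most 0.001 and -1.77 with at least 5 CpGs. Within against beyond 50 kb gave -2.44 at 12 points, -1.40 with q at most 0.001 and -10.2 at 10 kb. First against later introns gave 11.1 with q at most 0.001, 9.09 with at least 5 CpGs and 0.758 with at least 2 DMCs. The share of differences of at least 15 points gave -2.91 with q at most 0.001, -5.87 with at least 5 CpGs, -4.55 with at least 2 DMCs, -0.180 with at most 50% masked, -0.0649 against LINE and LTR regions, -3.15 at 13 points and -0.511 with a single placement. The cause was not tested. Apart from the minimum of 10 reads, the depth of a CpG is not known, so regions cannot be ranked by precision.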
